A study of Mus musculus with 4 samples.

Results

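The genes examined here are 10 classical targets of the p53 pathway that stop the cell cycle or start apoptosis: Cdkn1a, Mdm2, Bbc3, Pmaip1, Bax, Fas, Phlda3, Zmat3, Plk2 and Plk3. Peaks of p63 were assigned to them by position alone: a peak belonged to a gene when its summit lay in the gene body or within 50 kb of it in mm10, which gave 30 of the 14593 peaks in the alphaKO list and 37 of the 10616 peaks in the WT list. Chromatin immunoprecipitation followed by sequencing (ChIP-seq) had been carried out with the p63 antibody EPR570 on epidermis of mouse dorsal skin at postnatal day 0, cross-linked in 1% formaldehyde. The compared genotypes were labelled p63 alphaKO and wild type (WT), and each had 1 ChIP library and 1 input library; the inputs were not analysed here. The sources used here state neither what the alphaKO allele removes nor the number, sex or strain of the animals. The series is titled for modulation of p63 isoforms in AEC syndrome, in which dominant p63 mutations damage the skin, and the comparison addresses where p63 sat on chromatin in alphaKO epidermis relative to WT.

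The transcription factor p63 is a relative of p53 and maintains the basal layer of stratified epithelia. Both proteins bind as tetramers to a response element made of repeated decamers, each with a C and a G flanking an inner pair of bases, and the genes described here are best known as targets of p53 after DNA damage. In keratinocytes, p63 shares many of these elements, and its isoforms with different carboxy-terminal ends differ in how they act on them. A ChIP peak shows that p63 was near a site; it measures neither the transcripts of the gene nor which isoform was bound.

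Because each genotype had 1 library, no spread between replicates could be measured and no difference between alphaKO and WT was tested; every comparison below describes these libraries. The fold enrichment of a peak is the authors' own value, the ratio of the coverage at the summit to the peak caller's local background, and it was set beside its rank in its own list. All 7 basal keratinocyte genes used to check the tissue label (Krt5, Krt14, Krt15, Itga6, Itgb4, Col17a1 and Dst) had a peak within 50 kb in both lists. Over all coding genes that share was 41.0%. The strongest peak of these genes lay from 0 kb (inside Itga6) to 41.0 kb (Krt15) away in both lists. The median fold over all peaks was 15.5 in alphaKO and 8.44 in WT, so an alphaKO fold above the WT fold is the usual case: over the 7054 sites that the lists shared, the ratio of alphaKO to WT fold had a median of 1.68 and quartiles of 1.19 and 2.41. A site that is absent from a list can still have held coverage under that list's threshold.

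The sequences just upstream of 4 of the genes are printed here. They are the 250 bases before an annotated start, from RefSeq on GRCm38.p6 (the assembly of mm10), written 5′ to 3′ on the strand of the gene. Cdkn1a and Bbc3 are shown because p63 summits of both lists sat on a response-element core, Fas because its start had the lowest ratio of alphaKO to WT fold among these genes, and Bax as a start with no peak in either list. Capitals mark the core of CATG, any 6 bases and CATG in Cdkn1a (chr17:29090931-29090944), a core with A or T at the inner positions in Bbc3 (chr7:16309489-16309502), the 11 bases centred on the alphaKO summit in Fas, and a match to the p53 family decamer in Bax (chr7:45467090-45467099). The pattern marked in Bbc3 was set after the sequences had been seen. The Bbc3 sequence held no match to the CATG core or the decamer.
Cdkn1a chr17:29090729-29090978 (+): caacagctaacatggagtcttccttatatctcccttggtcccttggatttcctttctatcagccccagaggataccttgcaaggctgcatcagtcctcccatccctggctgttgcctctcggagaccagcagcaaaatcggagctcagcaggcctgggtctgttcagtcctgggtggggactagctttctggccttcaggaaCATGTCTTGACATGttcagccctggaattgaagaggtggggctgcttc
Bbc3 chr7:16309333-16309582 (+): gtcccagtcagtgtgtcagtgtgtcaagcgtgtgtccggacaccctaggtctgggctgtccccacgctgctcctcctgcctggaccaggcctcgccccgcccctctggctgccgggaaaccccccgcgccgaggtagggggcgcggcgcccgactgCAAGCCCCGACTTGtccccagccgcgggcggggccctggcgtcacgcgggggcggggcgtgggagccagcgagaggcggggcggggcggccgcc
Fas chr19:34290409-34290658 (+): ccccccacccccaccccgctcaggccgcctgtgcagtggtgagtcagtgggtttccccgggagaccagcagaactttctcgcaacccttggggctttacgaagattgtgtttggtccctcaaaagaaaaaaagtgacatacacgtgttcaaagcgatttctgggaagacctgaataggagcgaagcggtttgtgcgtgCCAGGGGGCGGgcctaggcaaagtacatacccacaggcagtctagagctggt
Bax chr7:45466899-45467148 (-): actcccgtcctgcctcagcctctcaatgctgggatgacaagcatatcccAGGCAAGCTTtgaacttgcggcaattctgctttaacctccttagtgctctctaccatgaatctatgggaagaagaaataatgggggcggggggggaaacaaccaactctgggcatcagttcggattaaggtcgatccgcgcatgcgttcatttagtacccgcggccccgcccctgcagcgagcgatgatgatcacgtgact

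All 10 genes had at least 1 peak of each list, and all 10 had at least 1 site shared by the lists, meaning peaks that overlap by at least 1 bp. Over 21887 protein-coding genes, the share with a summit in the gene body or at most 50 kb from it was 55.1% in alphaKO and 47.1% in WT, 41.0% had summits of both lists and 36.6% had a shared site. The genes averaged 3.00 peaks each in alphaKO and 3.70 in WT, where all coding genes averaged 1.18 and 0.998. Their median length was 8.35 kb against 17.2 kb over all coding genes, although Fas, Zmat3 and Mdm2 were longer than that. Peaks of the top 10% of a list by fold lay at 4 of the genes in alphaKO (Bbc3, Mdm2, Phlda3 and Bax) and at 5 in WT (Bbc3, Mdm2, Phlda3, Pmaip1 and Cdkn1a), against 11.5% and 9.50% of all coding genes. Counted by peak, they were 4 of 30 in alphaKO and 5 of 37 in WT, near the 10% that holds for a whole list by definition. The shares by gene also rise with the number of peaks per gene, and the Bax peak lay 47.4 kb away inside Ntf5. The alphaKO list was the longer of the lists and yet held the smaller number of peaks at these genes, 30 against 37 in WT. The order held at −log10 q of at least 10 (30 and 33) and within 100 kb (37 and 44), while 15 peaks of each list lay in the genes or within 10 kb. Equal list lengths gave 23 and 37, but that setting shortened the alphaKO list alone, so it could not reverse the order. A fold of at least 5 left 29 alphaKO and 27 WT peaks, but it falls at different depths of the lists, whose median folds differ.

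**Figure D1:**
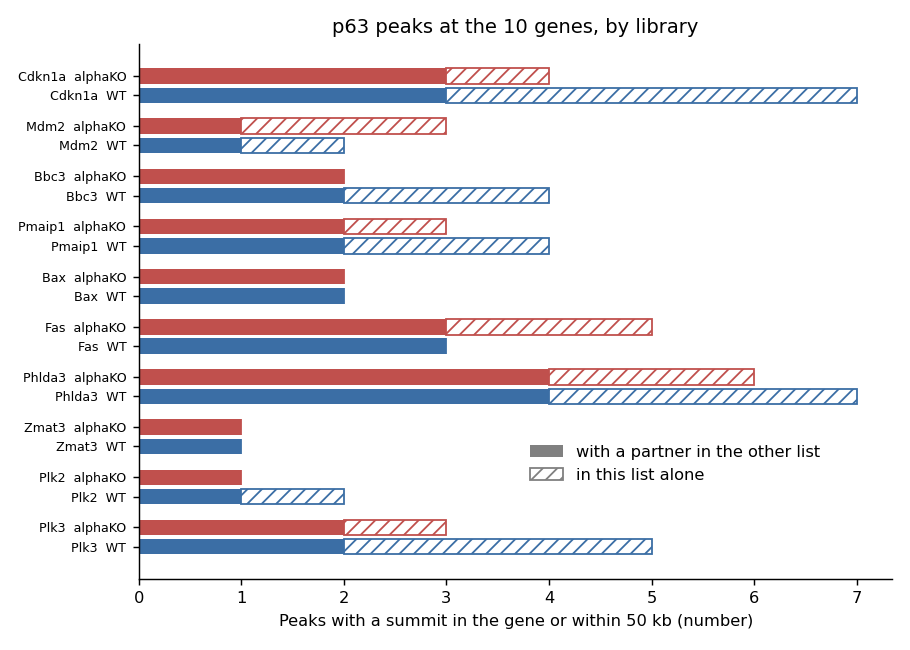
Number of p63 peaks (x axis) assigned to each gene, with the alphaKO bar above the WT bar. Filled parts are peaks with a partner in the other list and hatched parts are peaks in that list alone; Cdkn1a and Phlda3 had 7 WT peaks each, and Fas had 5 alphaKO peaks against 3 in WT.

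Sites shared by the lists made up 21 peaks in each, which is 70.0% of the 30 alphaKO peaks (95% Wilson interval 52.1 to 83.3) and 56.8% of the 37 WT peaks (40.9 to 71.3). Over the whole lists these shares were 48.4% in alphaKO and 66.6% in WT. At the 21 shared sites the alphaKO and WT summits lay a median of 4 bp apart, with a largest gap of 70 bp, against a median of 8 bp over all shared sites. The peaks in the alphaKO list alone numbered 9, with folds of 7.13 to 43.7, and those in the WT list alone numbered 16, with folds of 2.78 to 8.65. Of these, 2 of the 9 alphaKO peaks and 1 of the 16 WT peaks exceeded the median fold of their list, beside 36.8% of all alphaKO peaks without a partner and 9.58% of all such WT peaks. Sites in WT alone at these genes were thus nearly all among the weaker peaks of their list, as were those of the WT list as a whole.

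**Figure D2:**
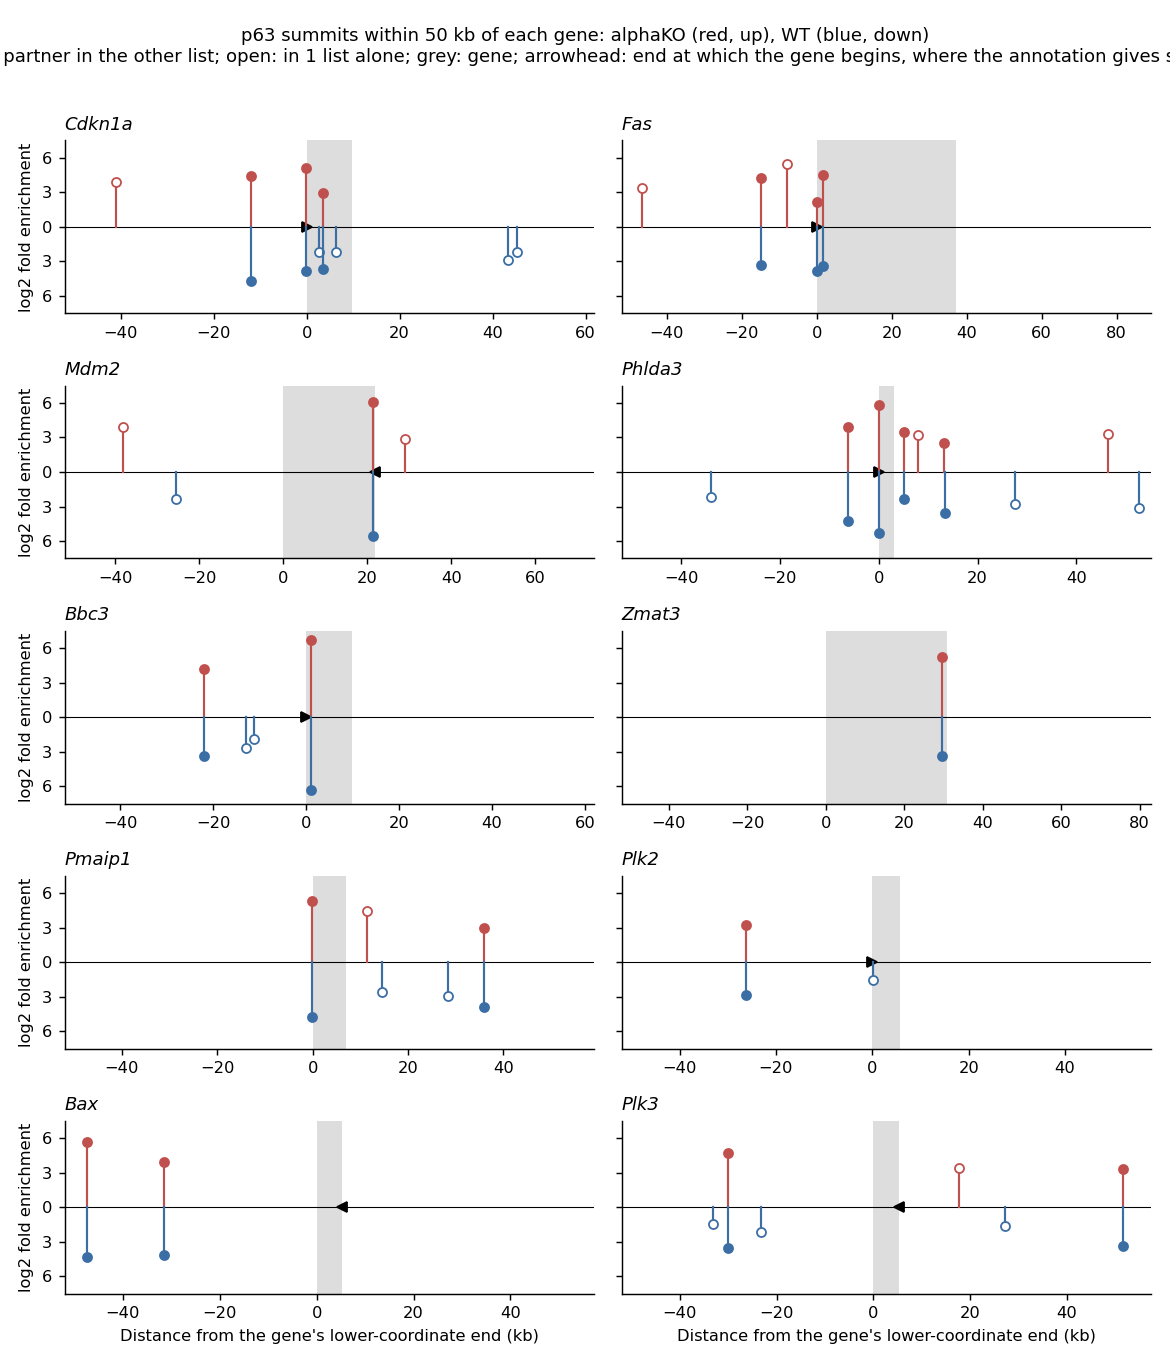
Position of every p63 summit relative to the lower-coordinate end of its gene (x axis, kb) and its log2 fold enrichment (y axis), alphaKO upward in red and WT downward in blue, with filled points for shared sites and open points for sites in 1 list alone. The tallest stems stand at the beginning of Bbc3, Mdm2 and Phlda3 in both lists, whereas the stems of Bax and Plk3 stand away from the gene.

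Cdkn1a encodes p21, the inhibitor of cyclin-dependent kinases that carries out cell-cycle arrest (chr17:29090979-29100722). It had 4 alphaKO and 7 WT peaks, of which 3 were shared. The alphaKO peak at its first annotated start (chr17:29090714-29091140) had a fold of 34.7 and a coverage of 234 at the summit, and the WT peak there (chr17:29090747-29091150) had a fold of 14.4 and a coverage of 101. The summits lay 38 bp (alphaKO) and 47 bp (WT) before the start, 3.5 and 5.5 bp from the centre of the core printed above. The other shared sites leaned the opposite way. The site 11.9 kb before the gene had folds of 21.6 in alphaKO and 25.9 in WT, and the site inside the gene, 735 bp after its second annotated start, had 7.5 in alphaKO and 12.7 in WT. In rank, the start site stood at the 82.9th percentile of the alphaKO list and the 75.6th of WT, the distal site at 66.1 and 92.0, and the inner site at 12.8 and 70.5. The strongest Cdkn1a site was therefore the start in alphaKO and the distal site in WT. Peaks in WT alone lay 122 bp before the second annotated start (fold 4.57), further inside the gene (4.59), and in Rab44 33.7 and 35.5 kb beyond it (7.32 and 4.43). The alphaKO peak without a partner (15.0) lay 41.1 kb before the gene and nearer to Srsf3.

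Plk2 and Plk3, polo-like kinases induced by stress, had little p63 of their own. Plk2 (chr13:110395044-110400844) carried 1 peak at its start, in WT alone, with a summit 52 bp after the start, a fold of 2.96 and a −log10 q of 4.28, near the bottom of the WT list (3.64th percentile). Its shared site, 26.1 kb away and nearer to Gapt, had folds of 9.28 in alphaKO and 7.13 in WT with a coverage of 58 in each. Plk3 (chr4:117128655-117133963) had no peak inside the gene or within 10 kb. Its nearest peaks lay 12.3 kb (alphaKO, fold 10.6) and 22 kb (WT, fold 3.15) away. Its strongest site (25.7 in alphaKO, 11.9 in WT) lay 30.1 kb away, and the other shared site (10.0 and 10.3) lay 46.2 kb away inside Kif2c. None of the 3 alphaKO or 5 WT peaks assigned to Plk3 had Plk3 as its nearest coding gene.

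Mdm2 encodes the ubiquitin ligase that degrades p53, and in p53 biology it is known for a promoter inside the gene (chr10:117688875-117710758). Its single shared site stood 646 bp (alphaKO) and 648 bp (WT) after the annotated start, on the minus strand. The alphaKO peak there (chr10:117709846-117710362) had a fold of 66.1 and a coverage of 634, and the WT peak (chr10:117709859-117710738) had 46.5 and 601. Both ranked high, at the 95.6th percentile in alphaKO and the 98.6th in WT. The window of 300 bases around the annotated start held no summit of either list. Other peaks were weak or belonged to a neighbour: 7.01 kb before the start in alphaKO alone (7.13), and inside Cpm in alphaKO alone (14.7) and in WT alone (5.22).

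Bbc3 encodes PUMA, a BH3-only activator of apoptosis, and it carried the strongest site of the 10 genes in both lists (chr7:16308398-16318334). The alphaKO peak (chr7:16309210-16310141) had a fold of 101 and a coverage of 995, and the WT peak (chr7:16309213-16310472) had 79.7 and 991. They ranked at the 98.6th percentile in alphaKO and the 99.8th in WT, and the fold ratio of 1.26 stood at the 28.7th percentile of all shared sites. Coverage at the summit was thus nearly equal in the libraries, and the local background was 8.88 in alphaKO and 11.4 in WT. The summits lay 1.5 bp (alphaKO) and 2.5 bp (WT) from the centre of the core printed above. That pattern was set after the sequences had been seen. The WT peak was the wider, 1260 bp against 932 bp in alphaKO. It covered all 300 bases of the window at the second annotated start and 292 at the third, where the alphaKO peak covered 131 and 0. A second shared site inside the neighbour Ccdc9 had folds of 18.1 in alphaKO and 10.1 in WT, and 2 peaks in WT alone (6.58 and 3.76) lay between the genes.

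Pmaip1 encodes NOXA, another BH3-only protein (chr18:66458604-66465558). It had no other coding gene within 50 kb, so all of its 3 alphaKO and 4 WT peaks were nearest to it. The leading site lay 166 bp (alphaKO) and 158 bp (WT) outside the lower-coordinate end of the gene, with folds of 39.0 in alphaKO and 26.9 in WT and coverages of 284 and 319. A site 28.9 kb beyond the other end leaned the opposite way, with 7.67 in alphaKO and 14.9 in WT. An alphaKO peak 4.45 kb beyond that end (chr18:66469354-66470205) had a fold of 21.6 and no WT partner, and WT peaks without a partner lay 7.52 kb (6.0) and 21.4 kb (7.72) beyond it. The region beyond the higher-coordinate end thus held 1 site shared by the lists and 3 peaks in a single list.

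Bax encodes a pore-forming effector of mitochondrial apoptosis (chr7:45461695-45466903). It had no peak of either list in the gene or within 31 kb. Its 2 assigned sites were shared and lay inside other genes: at 31.5 kb in Ruvbl2, with folds of 15.1 in alphaKO and 17.4 in WT, and at 47.4 kb in Ntf5, with 50.1 in alphaKO and 20.4 in WT. With 8 other coding genes within 50 kb, Bax had the densest surroundings of the 10. The upstream sequence printed above holds a match to the p53 family decamer 201 bases before the start, which says only that these letters are present.

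Fas, which encodes a death receptor of the tumour necrosis factor receptor family, had both the lowest fold ratio at a shared site and the strongest site in a single list among the 10 genes (chr19:34290647-34327775). At its annotated start the alphaKO peak (chr19:34290426-34290719) had a fold of 4.56 and a coverage of 50, and the WT peak (chr19:34290078-34290826) had a fold of 14.3 and a coverage of 110. This is a ratio of 0.319, at the 0.156th percentile of all shared sites, and the peak stood at the 3.40th percentile of the alphaKO list and the 75.5th of the WT list. The local background there was 10.2 in alphaKO and 6.75 in WT, and its part in the low ratio was not tested; alphaKO had the higher background at 5 of the 21 shared sites and at 26.7% of all shared sites. The other Fas sites stood higher in alphaKO. A peak 7.90 kb before the gene (chr19:34282519-34283004), the strongest peak of Fas, had a fold of 43.7 and a coverage of 297 in alphaKO and no WT partner. The shared site 1717 bp (alphaKO) and 1714 bp (WT) after the start had folds of 23.3 in alphaKO and 10.8 in WT, and the one 14.9 kb before the gene had 19.4 and 9.68. The remaining alphaKO peak without a partner (10.1) lay in Acta2.

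Phlda3 encodes a small protein with a pleckstrin homology domain that restrains Akt (chr1:135766085-135769134). It had 6 alphaKO and 7 WT peaks, the most of the 10 genes in alphaKO. At its start the alphaKO peak (chr1:135765871-135766471) had a fold of 56.2 and a coverage of 518, and the WT peak (chr1:135765864-135766516) had 38.7 and 354. The summits lay 56 bp (alphaKO) and 42 bp (WT) after the annotated start. Of the other shared sites, the one 1.98 kb beyond the gene had folds of 11.4 in alphaKO and 4.99 in WT, while those 6.20 kb before it (14.5 and 19.1) and 10.2 kb beyond it (5.87 and 11.7) had the higher fold in WT. The last of these was nearer to Tnni1. Sites assigned to this gene thus differed in which library had the higher fold. The WT peak without a partner 49.6 kb away in Lad1 had a fold of 8.65, the highest of any WT peak without a partner here and just above the median of the WT list.

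Zmat3, which encodes an RNA-binding zinc-finger protein, had 1 peak in each list, at the same place inside the gene, 1.33 kb from its higher-coordinate end (chr3:32334792-32365665). The alphaKO peak (chr3:32364077-32364579) had a fold of 37.7 and a coverage of 311, and the WT peak (chr3:32364166-32364479) had a fold of 10.7 and a coverage of 115. The ratio of 3.54 was the highest among the 21 shared sites and stood at the 90.9th percentile of all shared sites.

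**Figure D3:**
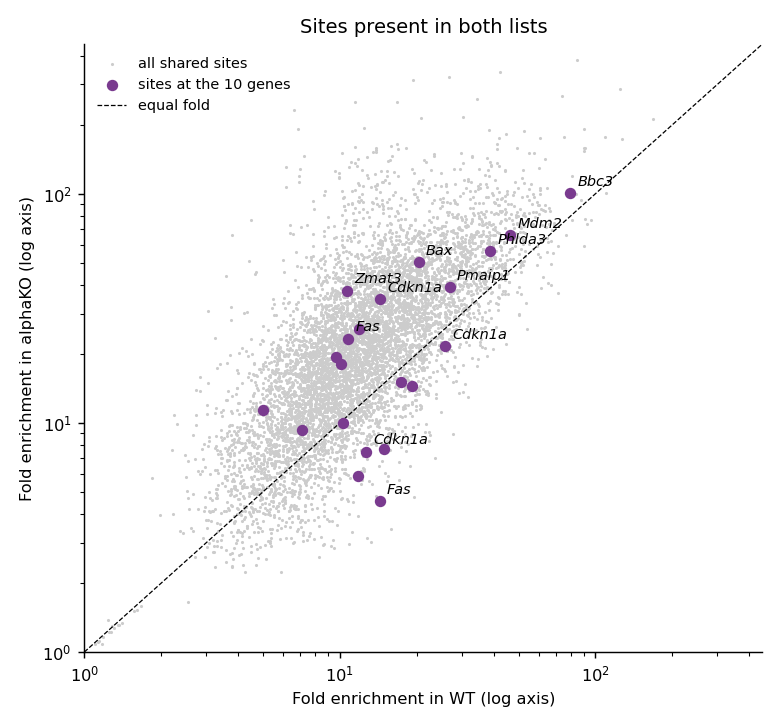
Fold enrichment in WT (x axis, log) and alphaKO (y axis, log) at all 7054 shared sites in grey and at the 21 sites of the 10 genes in purple, with equal fold as a dashed line. Bbc3 lies at the top with folds of 101 in alphaKO and 79.7 in WT, and the start of Fas lies below the line with 4.56 and 14.3.

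Across the 21 shared sites, the ratio of alphaKO to WT fold ranged from 0.319 at the start of Fas to 3.54 in Zmat3, with a median of 1.42 and quartiles of 0.837 and 2.16. It was below 1 at 8 of the 21 sites, where 16.3% of all shared sites had such a ratio, and above the median of all shared sites at 8. Coverage at the summits had a median ratio of 1.05 against 1.40 over all shared sites. The sites below 1 were assigned to 6 genes (Fas, Phlda3, Pmaip1, Cdkn1a, Bax and Plk3). Those of Bax and Plk3 lay 31.5 and 46.2 kb away, inside Ruvbl2 and Kif2c. Within single genes the ratios ran from 0.319 to 2.16 at Fas, from 0.501 to 2.29 at Phlda3 and from 0.590 to 2.41 at Cdkn1a, so each of these genes had sites on both sides of equal fold. The Phlda3 site at 0.501 was nearer to Tnni1, and the site 6.20 kb before Phlda3 had a ratio of 0.761.

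**Figure D4:**
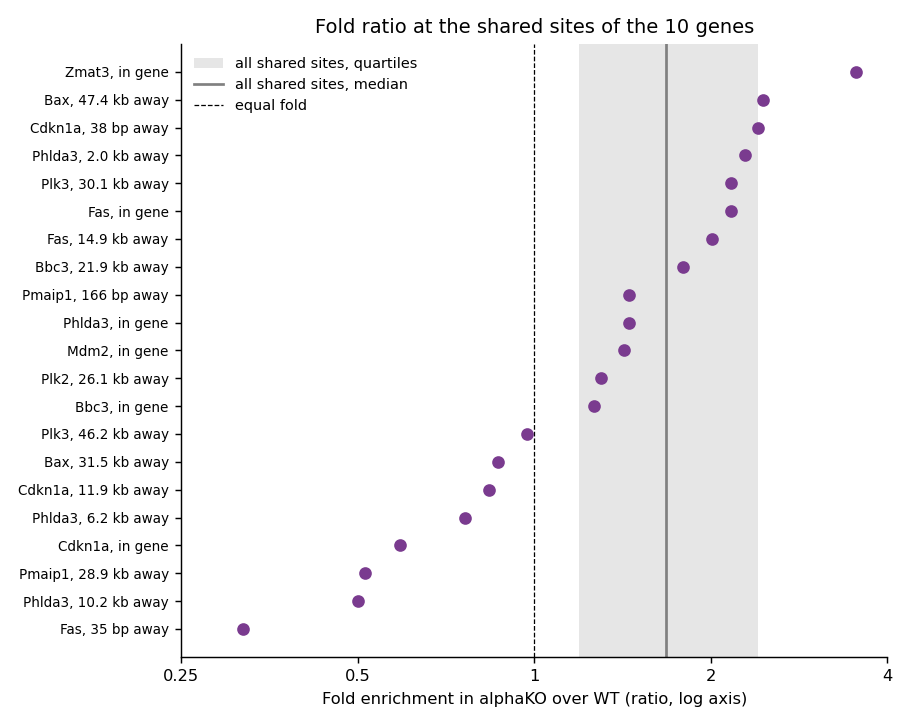
Ratio of alphaKO to WT fold enrichment (x axis, log) at each of the 21 shared sites, named by gene and distance from it and ordered by ratio. The grey band and line give the quartiles (1.19 and 2.41) and median (1.68) of all shared sites, and 8 sites lie left of the dashed line of equal fold.

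Several of the strongest sites lay at annotated starts. Of the 8 genes with an annotated promoter window (Pmaip1 and Zmat3 had none), 5 had a summit within 1 kb of an annotated start in alphaKO (Cdkn1a, Mdm2, Bbc3, Fas and Phlda3) and 6 in WT (the same and Plk2), and the same 5 had summits of both lists. Over 17492 coding genes with such a window the shares were 5.56% in alphaKO, 9.32% in WT and 4.04% in both. Peaks inside the genes had a median fold of 47.0 in alphaKO (6 peaks) and 10.8 in WT (9 peaks), those outside but within 10 kb 14.5 in alphaKO (9 peaks) and 14.3 in WT (6 peaks), and those between 10 and 50 kb away 14.7 in alphaKO (15 peaks) and 7.52 in WT (22 peaks). The peaks inside the genes thus had the highest median in alphaKO but not in WT, over sets of sites that differ between the lists. All 6 alphaKO peaks inside the genes had a WT partner, and 6 of the 9 WT peaks inside them had an alphaKO partner. The WT peaks inside the genes without a partner had folds of 4.57, 4.59 and 2.96, and those with a partner had 10.7 to 79.7. Peaks at the first start of Cdkn1a and the start of Fas lay just outside the genes and were counted there. The rule's limit of 50 kb left out a shared site 52.3 kb from Plk3 (18.4 in alphaKO, 17.2 in WT) and one 59.5 kb from Cdkn1a (38.3 and 27.1), while the last peaks inside it were the alphaKO peak 47.4 kb from Bax and the WT peak 49.6 kb from Phlda3.

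The response-element letters of the promoter windows, searched on both strands, were unevenly spread over the genes. The core of CATG, any 6 bases and CATG occurred in 1 of the 11 windows of these genes, that of Cdkn1a, and in 0.712% of all 32851 windows of 300 bases; it was in 10 of the 476 windows with an alphaKO summit (2.1%) and in 9 of the 987 windows with a WT summit (0.912%). A looser core, CNNG, any 6 bases and CNNG, was in 10 of the 11 windows and in 70.2% of all windows. The p53 family decamer matched in 3 of the 11 windows (Cdkn1a, Mdm2 and Bax) and in 8.36% of all windows, and in 16.2% of the windows with an alphaKO summit and 9.93% of those with a WT summit. In Cdkn1a it matched at 2 places, one of them overlapping the CATG core. A core with A or T at the inner positions, looked for after the sequences had been seen, was in the windows of Cdkn1a, Bbc3 and Plk2, and in 7.22% of all windows, 23.5% of those with an alphaKO summit and 9.73% of those with a WT summit. The windows of Fas and Phlda3, whose starts had peaks in both lists, held neither the decamer nor either stricter core.

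The other genes of the pathway were counted with the same distance, against the 55.1% of all coding genes in alphaKO and 47.1% in WT given above. Each fold given is the highest of any peak within 50 kb in that list. This peak can lie far from the gene and can be a different site in each list. Of 15 further arrest and apoptosis targets, 13 had a peak within 50 kb in alphaKO and 13 in WT, with 12 in both. The strongest in alphaKO were Gtse1 (150 in alphaKO, 57.4 in WT), Btg2, an antiproliferative gene (78.1 and 45.9), and Sfn, which encodes 14-3-3 sigma (72.2 and 34.9); Triap1 had peaks in alphaKO alone (15.4) and Ei24 in WT alone (5.08). Of 14 repair, metabolism and stress targets, 11 had a peak in alphaKO and 10 in WT. The strongest in alphaKO were Sesn1, which encodes a sestrin (80.1 and 16.4), Polk, a DNA polymerase gene (54.1 and 44.6), and Ddit4 (44.2 and 35.7). In alphaKO these peaks lay 31.7, 31.8 and 49.8 kb from the genes. Rrm2b (27.1) and Gls2 (8.59) had a peak in alphaKO alone and Xpc (8.46) in WT alone. Of 6 regulators of p53, 5 had a peak in alphaKO and 3 in WT, with Mdm4, the partner of Mdm2, the strongest (54.9 and 26.7). Cdkn2a (18.5), Trp53, which encodes p53 itself (11.3), and Rchy1 (8.61) had peaks in alphaKO alone, and Usp7 (4.61) in WT alone. The 3 of 6 regulators with a peak in WT are near the share of all coding genes. Usp7, and Bcl2l11 below, were named after their values were seen.

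Relatives of the 10 genes were counted in the same way. Several of their counts lie near the shares of all coding genes, 55.1% in alphaKO and 47.1% in WT. Of 11 other Bcl2 family genes, 7 had a peak in alphaKO and 9 in WT. The strongest in alphaKO were Bcl2, the founding survival gene (53.1 in alphaKO, 17.8 in WT), Bak1 (49.2 and 25) and Bad (40.8 and 36.7). In both lists these peaks lay inside Bcl2, 45.4 kb from Bak1 and 15.1 kb from Bad. The strongest in WT was Bcl2l11 (36.5 in alphaKO, 51.4 in WT), and Bik (3.75) and Bmf (3.61) had peaks in WT alone. Of 6 other inhibitors of cyclin-dependent kinases, 4 had a peak in alphaKO and 3 in WT, led in both lists by Cdkn2d (37.0 and 34.4) and Cdkn2b (28 and 16.2). The Cdkn2d peaks lay 23.7 kb away in both lists, and those of Cdkn2b 39.7 kb away in alphaKO and 42.2 kb in WT. Cdkn2a (18.5) and Cdkn1b (7.38) had peaks in alphaKO alone and Cdkn2c (5.47) in WT alone. Of 3 other polo-like kinase genes, Plk5 had peaks in both lists (61.2 and 33.2), Plk4 in alphaKO alone (17.6) and Plk1 in neither. The strongest peak of a gene had a median fold of 41.4 in alphaKO and 23.1 in WT over the 10 genes, against 23.5 and 11.6 over all coding genes that had a peak. A highest value tends to rise with the number of peaks, which was larger at the 10 genes and was not matched here. Taken singly, the peaks at the 10 genes had a median rank at the 48.5th percentile in alphaKO and the 57.5th in WT.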

How the data were processed

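Peak lists of the 2 p63 ChIP libraries were used, 1 per genotype and not pooled. Per the submitters' processing notes, the authors used Bowtie2 and MACS2 2.1.1.20160309 with mm10; the sources used here do not give caller options, duplicate handling or control libraries. The deposited columns hold, per the file headers, peak positions, summit pileup (a coverage signal), the −log10 p-value and −log10 q-value, and a fold enrichment, which is a ratio to local background. Read totals are not in peak lists, so depth is unknown; an index from the lowest recovered background over the smallest peak width was 0.898 times as high in alphaKO as in WT. Local background was taken as (pileup + 1) / fold − 1.

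Genes came from a RefSeq table of GRCm38.p6 without exons, so exonic or intronic position was not analysed here, and strand and starts from RefSeq promoter windows (250 bases before to 50 after a start). Summits within 50 kb of a gene, overlap of at least 1 bp and ranks by fold within each list were used. Shared sites were peaks that were each other's best partner. Wilson intervals cover counting error only, and peaks are not replicates. No test between genotypes was possible with 1 library each. The genes and lists were chosen with earlier results of these data known. All 10 genes are named; of other lists, the 3 genes with the highest alphaKO fold and up to 3 with a peak in a single list were taken. Alternatives changed the q and fold thresholds, the distance, the list length, the overlap and the assignment to genes. The code was tested on simulated data. The tools were matplotlib 3.10.9, SciPy 1.17.1, pandas 2.3.3, NumPy 2.4.6 and Python 3.11.15.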

Additional observations from a re-analysis of the deposited data

How the results depend on the processing

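Of 60 recomputed values, 52 stayed within 1.5 times of the count or within the interval of the share or median, and 8 moved further, all with fewer distant peaks. Within 10 kb of the genes the peaks numbered 15 in alphaKO and 15 in WT, 73.3% of the WT peaks had an alphaKO partner, and their median rank by fold in the WT list was at the 70.5th percentile, against 57.5 within 50 kb. The median rank in the alphaKO list rose as well, from 48.5 to 69.2. It was not counted as moved because its interval was wide (26.6 to 69.2). Counting only peaks whose nearest coding gene was the gene itself, there were 18 in alphaKO and 19 in WT, 73.7% of the WT peaks had a partner, and the median rank was 66.0 in alphaKO and again 70.5 in WT. Both settings left Bax and Plk3 without a peak in either list and Plk2 without one in alphaKO. Equal list lengths shortened the alphaKO list alone, to 23 peaks at these genes against 37 in WT. Plk2 was then without an alphaKO peak. A fold of at least 5 left 29 peaks in alphaKO and 27 in WT, a limit that falls at different depths of lists whose median folds differ. No paired analysis was possible because each genotype had 1 ChIP library. Fold values depend on depth and on background that the lists do not give. Weak peaks such as that at the start of Plk2 (−log10 q of 4.28 in WT) stood low in the WT list, whose median was 42.0 and smallest value 1.31. The smallest value among the WT peaks of the 10 genes was 2.92, at a peak 33.1 kb from Plk3.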
